A study of Mus musculus with 4 samples.

Results

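Polycomb repressive complex 2 (PRC2) is the enzyme complex that methylates lysine 27 of histone H3 (H3K27). Transcripts of 10 genes that encode its subunits were examined: Ezh1, Ezh2, Eed, Suz12, Rbbp7, Mtf2, Phf1, Phf19, Jarid2 and Aebp2. They were chosen by name, each found by its Ensembl gene identifier, and are 10 of the 14533 genes in the expression table. All 10 were among the 13005 genes that passed the filter on low values and were tested. The RNA came from mouse embryonic stem cells (ESCs) sorted from a G1-phase gate, with 2 libraries from serum ESCs and 2 libraries from 2i ESCs. Serum ESCs were kept in medium with fetal calf serum and leukemia inhibitory factor (LIF). 2i ESCs were kept in serum-free medium with LIF and the kinase inhibitors PD0325901, which blocks MEK, and CHIR99021, which blocks GSK3. Per the labels, adaptation to either medium had lasted more than 20 days and the cells were in late G1-phase, whereas the series description names early G1-phase. The study also places this comparison in late G1-phase. It sorted cells by phase with R1 ESCs that carry FUCCI reporters, but the labels do not say which line gave these libraries.

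PRC2 places up to 3 methyl groups on H3K27, and the trimethylated form marks silent developmental genes. EZH1 and EZH2 are alternative catalytic subunits, EED binds the mark and stimulates the enzyme, SUZ12 holds the complex together, and RBBP4 and RBBP7 are interchangeable histone-binding subunits. Accessory subunits form a pair of versions of the complex: PRC2.1 contains MTF2, PHF1 or PHF19, and PRC2.2 contains JARID2 and AEBP2. In mouse ESCs, PRC2 is known to be dispensable for self-renewal but needed for proper differentiation.

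Values are normalized counts, which are read counts of a gene divided by a scaling factor of the library. Whole reads numbered 26570098 and 18939401 in serum against 21649417 and 20421024 in 2i. The share of reads from protein-coding genes was 46.9% in serum replicate 1, 76.3% in serum replicate 2, 57.8% in 2i replicate 1 and 66.3% in 2i replicate 2. The 10 most abundant genes took 50.6% and 17.5% in serum against 34.7% and 25.5% in 2i. All 12 ESC markers were detected, with summed normalized counts of 68547 and 103866 in serum against 75512 and 97703 in 2i. Markers of other cell types summed to less: 85.4 to 277 for 3 detected fibroblast genes of 9, 1753 to 3954 for 6 primitive endoderm genes of 9, and 330 to 3997 for 3 trophoblast genes of 6. Trophoblast marker sums were 366 and 330 in serum against 2388 and 3997 in 2i. The highest single values were 2215 for Elf5 in 2i replicate 1, where its other libraries held 80.7 to 118, and 3614 for Krt8 in 2i replicate 2, where its other libraries held 83.1 to 196. Of the fibroblast genes, Col1a2, Col3a1, Dcn, Lum, Postn and Twist2 had no value in the table.

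E2F factors control genes of the G1-to-S-phase transition, and the study compared this transition between the 2 media, so the promoters of the PRC2 genes were searched for E2F-type words. All 10 genes matched the RefSeq promoter table (GRCm38.p6), with 14 start sites between them. Each window held 300 bases, from 250 before the start site to 50 after it. The words TTTCCCGC and TTTGGCGC were searched on both strands. Either word was in 3 of the 14 windows, and in 514 of 32851 windows of all genes (1.56%). By gene, either word was in 3 of the 10 subunit genes and in 486 of all 27025 genes (1.8%). TTTCCCGC alone was in 1.07% and TTTGGCGC in 0.514% of all windows. The stretches of 60 bases that hold the words are printed 5′ to 3′ on the gene's own strand, with the word in capitals. In Suz12 the word is TTTCCCGC, 219 to 212 bases before the start (GRCm38.p6, chr11:79992861-79992920, + strand). In Phf19 it is the reverse complement of that word, 208 to 201 bases before the start (GRCm38.p6, chr2:34914151-34914210, - strand). In Ezh2 it is TTTGGCGC, at bases 4 to 11, counting the first transcribed base as 1 (GRCm38.p6, chr6:47595020-47595079, - strand).
Suz12: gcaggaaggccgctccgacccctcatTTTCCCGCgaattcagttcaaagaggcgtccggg
Phf19: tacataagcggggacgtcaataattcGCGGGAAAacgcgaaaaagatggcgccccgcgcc
Ezh2: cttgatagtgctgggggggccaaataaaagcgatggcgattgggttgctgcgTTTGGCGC
The E-box word CACGTG was in none of the 14 windows and in 7.15% of all windows. A match describes the letters of the window and does not show that a factor binds there. The study mapped E2F1 binding in both media and reports no correlation between its differences and those of RNA.

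Across the complex, no subunit gene passed the threshold of an adjusted p under 0.05, and Ezh2 and Jarid2 had the lowest p-values. Of the 10 genes, 9 had a higher fitted level in serum ESCs and 1, Phf1, had a lower one. Phf1 passed the filter on low values through 2i alone and Phf19 through serum alone, so the filter favours the direction of each. The other 8 genes passed through both media. All 8 had a higher fitted level in serum with limma, as did 54.1% of the 11255 genes that passed through both. Ezh1 and Aebp2 turned lower under upper quartile scaling, and Ezh1 also with edgeR (-0.056) and DESeq2 (-0.045). Ezh1, Aebp2, Suz12 and Mtf2 each turned lower in some fits with a library left out. The median log2 fold change of serum over 2i was 0.59, where the median over all tested genes was 0.0047 and 50.3% of them had a value above 0. The subunit median was 0.17 without serum replicate 2, 0.31 without 2i replicate 1 and 1.01 without serum replicate 1. The threshold was passed by 0 of 10 subunit genes with limma, where it was passed by 0.0154% of all tested genes (Benjamini-Hochberg adjustment). At an unadjusted p under 0.05, 2 subunit genes (Ezh2 and Jarid2) were higher in serum, and 2.97% of all genes were. No subunit gene was higher in 2i at that level, against 3% of all genes. In 3 subunit genes (Ezh2, Phf19 and Jarid2) both serum values lay above both 2i values, as in 20.5% of all genes. Without Phf19 and Phf1 this held for 2 of 8, and for 21.9% of the genes that passed through both media. In 0 subunit genes did both lie below, as in 19.4% of all genes. The 10 values are not independent, since each is taken from the same 4 libraries.

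Count tests on the whole reads also called none of the subunit genes at an adjusted p under 0.05. With edgeR, 0 of 10 passed the adjusted threshold, where 0% of all genes did, and 0 were higher in serum at an unadjusted p under 0.05, where 2.24% of all genes were. The lowest edgeR adjusted p among the subunits was 0.692. With DESeq2, 0 of 10 passed, where 1.93% of all genes did, and Ezh2 and Jarid2 were higher in serum at an unadjusted p under 0.05, where 5.37% of all genes were. Their DESeq2 adjusted p-values were 0.254 for Ezh2 and 0.211 for Jarid2. The study called genes with DESeq2 at a 2-fold change and a p under 0.05, without saying whether that p was adjusted. With unadjusted DESeq2 p-values, Ezh2 (log2 fold change 1.18, p 0.0191) and Jarid2 (1.37, p 0.0135) would pass those limits. The share of all genes that would pass them was not counted. Nothing in the labels says that replicates were separate cultures beyond the word biological in the series description, so p-values measure the spread between these libraries. In a bulk sample, fewer cells that express a gene and less RNA per cell cannot be told apart.

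**Figure D1:**
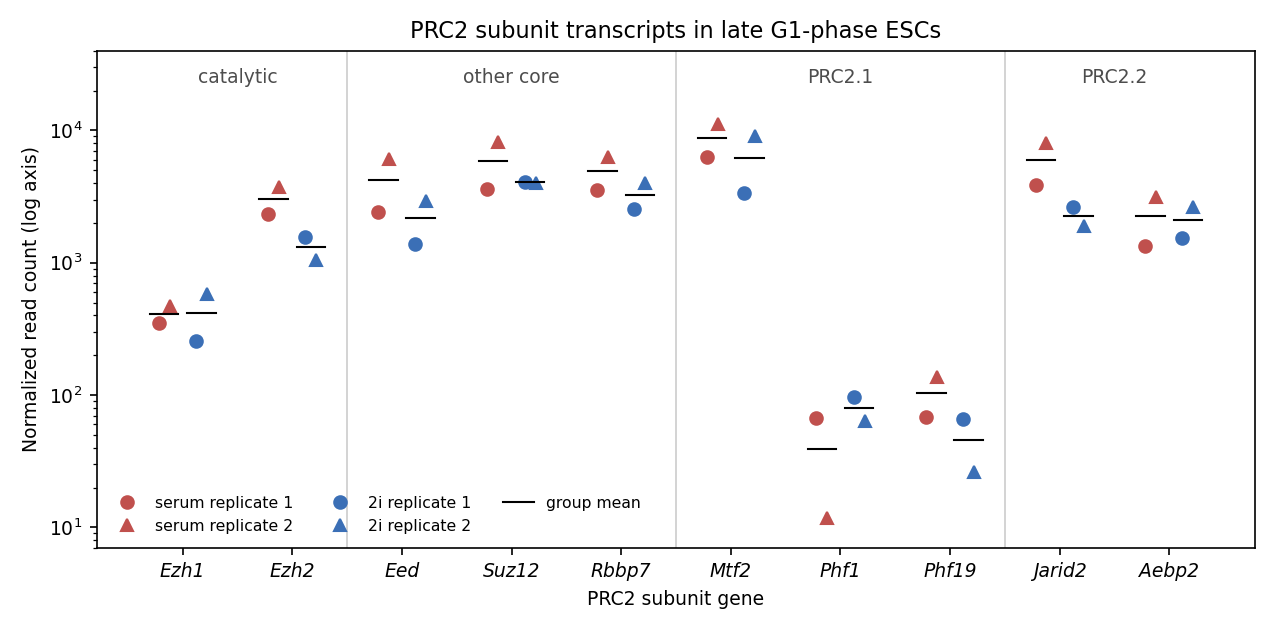
Normalized counts of the 10 PRC2 subunit genes on a log axis, with circles for replicate 1, triangles for replicate 2, red for serum, blue for 2i and a bar at each group mean. Only Ezh2, Phf19 and Jarid2 have both serum points above both 2i points, and Phf1 and Phf19 lie between 11.7 and 138, far under the other genes.

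Among the catalytic subunits, Ezh2 had the larger difference. Ezh2 (ENSMUSG00000029687, mm9 chr6:47480273-47545340, - strand) encodes the main methyltransferase of PRC2 in dividing cells. Its normalized counts were 2344 and 3742 in serum against 1574 and 1045 in 2i. Both serum libraries were above both 2i libraries, and the mean was 3043 ± 988 (SD, n = 2) in serum and 1309 ± 374 (SD, n = 2) in 2i. The log2 fold change was 1.21 (SE 0.49, 95% confidence interval 0.03 to 2.38), a fitted ratio of 2.31, with a limma adjusted p of 0.753. Ezh1 (ENSMUSG00000006920, mm9 chr11:101052429-101087777, - strand) encodes the paralog that is known for weaker methyltransferase activity and for expression in cells that have stopped dividing. Its normalized counts were 351 and 470 in serum against 254 and 583 in 2i. The serum values lay between the 2i values. The log2 fold change was 0.08 (SE 0.56, 95% confidence interval -1.27 to 1.43), with a limma adjusted p of 0.980, and its sign changed with the scaling and with the count tests.

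The ratio of Ezh2 to Ezh1 within a library varied in 2i. From 2i replicate 1 to 2i replicate 2, Ezh1 changed by 1.19 and Ezh2 by -0.59 in log2(normalized count + 1). Per kilobase of exon, Ezh2 was 8.01 and 9.55 times Ezh1 in serum against 7.43 and 2.15 times in 2i. The log2 ratio was 3.13 ± 0.18 (SD, n = 2) in serum and 2.00 ± 1.26 (SD, n = 2) in 2i, a difference of 1.13. The groups did not overlap, but 2i replicate 1 was close to serum replicate 1, and the difference was 0.24 without 2i replicate 2. With 2 libraries against 2, an exact two-sided permutation test cannot give a p below 0.33, so ratios are given without a test.

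The other core subunits had higher means in serum, with overlapping libraries. Eed (ENSMUSG00000030619, mm9 chr7:97103166-97129493, - strand), whose product recognises trimethylated H3K27, had 2403 and 6092 normalized counts in serum against 1376 and 2946 in 2i. Replicate 2 was the higher library in each medium, and the log2 fold change was 0.93 (SE 0.65, 95% confidence interval -0.63 to 2.48). Suz12 (ENSMUSG00000017548, mm9 chr11:79806608-79847625, + strand), the scaffold subunit, had 3618 and 8148 in serum against 4069 and 4028 in 2i. The 2i libraries were nearly equal and serum replicate 1 was below both, so that the log2 fold change of 0.42 (SE 0.55) came from serum replicate 2. Without serum replicate 2 it was -0.16. Rbbp7 (ENSMUSG00000031353, mm9 chrX:159198334-159217024, + strand), a histone-binding subunit that also belongs to deacetylase complexes, had 3537 and 6314 in serum against 2541 and 3988 in 2i. Its log2 fold change was 0.57 (SE 0.53, 95% confidence interval -0.71 to 1.85). The limma adjusted p was 0.761 for Eed, 0.866 for Suz12 and 0.799 for Rbbp7.

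Ratios between core subunits within a library differed in their spread. Per kilobase, Suz12 was 0.675 and 0.600 times Eed in serum against 1.33 and 0.613 times in 2i. Of the 4 libraries, 2i replicate 1 was the only one with more Suz12 than Eed. Ezh2 was 0.517 and 0.366 times Suz12 in serum against 0.309 and 0.207 times in 2i, which did not overlap, with a log2 difference of 0.78. Ezh2 over Eed overlapped between media, with 0.349 and 0.220 in serum against 0.410 and 0.127 in 2i.

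**Figure D2:**
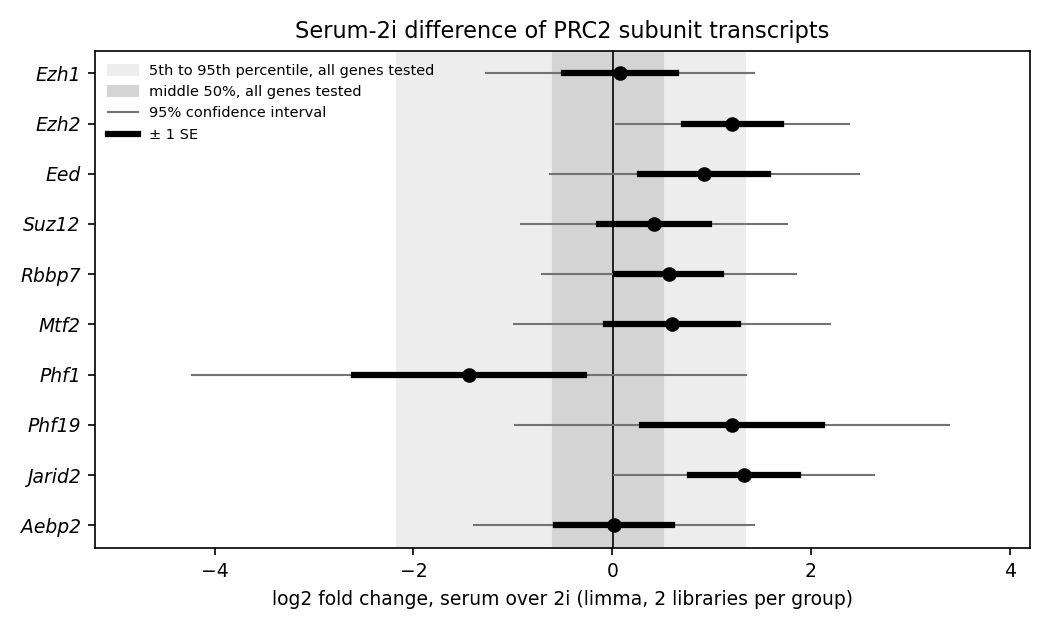
Fitted log2 fold change of serum over 2i for each PRC2 subunit gene (points), with 1 standard error (thick bar) and the 95% confidence interval (thin bar) from limma on 2 libraries per medium. The grey bands hold the middle 50% and the 5th to 95th percentile of all 13005 tested genes (-2.16 to 1.33), the vertical line is their median of 0.0047, and no subunit lies beyond the outer band.

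The accessory subunits of PRC2.1 spanned the widest range of levels. Mtf2 (ENSMUSG00000029267, mm9 chr5:108494693-108538023, + strand), which guides PRC2 to unmethylated CpG islands, had 6281 and 11205 normalized counts in serum against 3349 and 9119 in 2i. The libraries overlapped, since 2i replicate 2 lay between the serum values, and the log2 fold change was 0.60 (SE 0.66, limma adjusted p 0.836). Phf19 (ENSMUSG00000026873, mm9 chr2:34749277-34769546, - strand), whose Tudor domain binds H3K36 trimethylation, had 68.0 and 138 in serum against 65.4 and 26.2 in 2i. Serum replicate 1 and 2i replicate 1 were almost equal, at 68 and 63 whole reads, whose 95% Poisson intervals of 52.8 to 86.2 and 48.4 to 80.6 overlap. The Phf19 log2 fold change was 1.21 (SE 0.91, 95% confidence interval -0.98 to 3.39, limma adjusted p 0.765).

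Phf1 (ENSMUSG00000024193, mm9 chr17:27070072-27074835, + strand), a Tudor-domain paralog of Phf19 and Mtf2, was the only subunit gene with a fitted level below that in 2i. It had 67.0 and 11.7 normalized counts in serum against 96.5 and 64.0 in 2i. Serum replicate 1 was within the 2i range, and serum replicate 2 held 12 whole reads (95% Poisson interval 6.20 to 21.0), against 66 to 93 in the others. Its log2 fold change was -1.44 (SE 1.16, 95% confidence interval -4.23 to 1.35, limma adjusted p 0.774), and -0.23 without serum replicate 2. Poisson intervals cover counting error only. At this depth, a change of either gene smaller than those intervals was not detectable.

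In PRC2.2, Jarid2 differed more than Aebp2. Jarid2 (ENSMUSG00000038518, mm9 chr13:44824843-45017012, + strand) encodes a subunit that helps recruit PRC2 and stimulates its activity on nucleosomes. It had 3882 and 8074 normalized counts in serum against 2619 and 1898 in 2i. Both serum libraries were above both 2i libraries, with means of 5978 ± 2964 (SD, n = 2) and 2259 ± 510 (SD, n = 2). The log2 fold change was 1.33 (SE 0.54, 95% confidence interval 0.02 to 2.63), a fitted ratio of 2.51, with a limma adjusted p of 0.753. Aebp2 (ENSMUSG00000030232, mm9 chr6:140570970-140626993, + strand), a zinc-finger subunit, had 1340 and 3148 in serum against 1546 and 2653 in 2i. Replicate 2 was again the higher library in each medium, the 2i values lay within the serum values, and the log2 fold change was 0.02 (SE 0.58, limma adjusted p 0.994). The sign of the Aebp2 value changed under upper quartile scaling.

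The balance of accessory subunits was compared within libraries. Per kilobase, Jarid2 was 2.61 and 2.31 times Aebp2 in serum against 1.53 and 0.645 times in 2i, a log2 difference of 1.31 with no overlap. Jarid2 over Mtf2 overlapped, at 0.335 and 0.390 in serum against 0.424 and 0.113 in 2i. The summed PRC2.1 subunits (Mtf2, Phf1 and Phf19) were 2.23 and 1.81 times the summed PRC2.2 subunits (Jarid2 and Aebp2) in serum against 1.54 and 3.54 times in 2i. The 2i libraries lay on either side of the serum libraries, and the log2 difference of -0.22 became 0.38 without 2i replicate 2. Mtf2 made up most of the PRC2.1 sum, at 29.0 and 66.1 times Phf1 and Phf19 together in serum against 12.1 and 54.9 times in 2i.

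The subunit genes also differed between replicates of a medium. In 8 of 10 genes the larger of the replicate differences, on the log2(normalized count + 1) scale, exceeded the fitted serum-2i difference. That comparison sets the larger single difference against a difference of means, which favours the replicates. The share of all tested genes that meet it was not counted, so the 8 are not a trait of the subunits. Serum replicate 2 was above serum replicate 1 in 9 of 10 subunit genes, with a median difference of 0.92, where 6820 of 13005 tested genes were above and their median was 0.045. In 2i, replicate 2 was above replicate 1 in 5 of 10, with a median difference of 0.32. Over the 13005 tested genes this held for 6658, with a median of 0.031. Serum replicate 2 was also the library with the largest protein-coding share (76.3%). The part of that share in the subunit values was not tested.

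Each choice of 1 serum and 1 2i library gave another median over the subunits. It was 0.47 for replicate 1 against replicate 1 and 0.84 for replicate 2 against replicate 2. It was 1.16 for serum replicate 2 against 2i replicate 1 and -0.16 for serum replicate 1 against 2i replicate 2. The standard error of the 10 genes ranged from 0.49 to 1.16, with 0.57 as the median over all tested genes. Ezh2, Jarid2 and Phf19, which passed the filter through serum alone, were the genes higher in serum in all 4 library pairs.

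**Figure D3:**
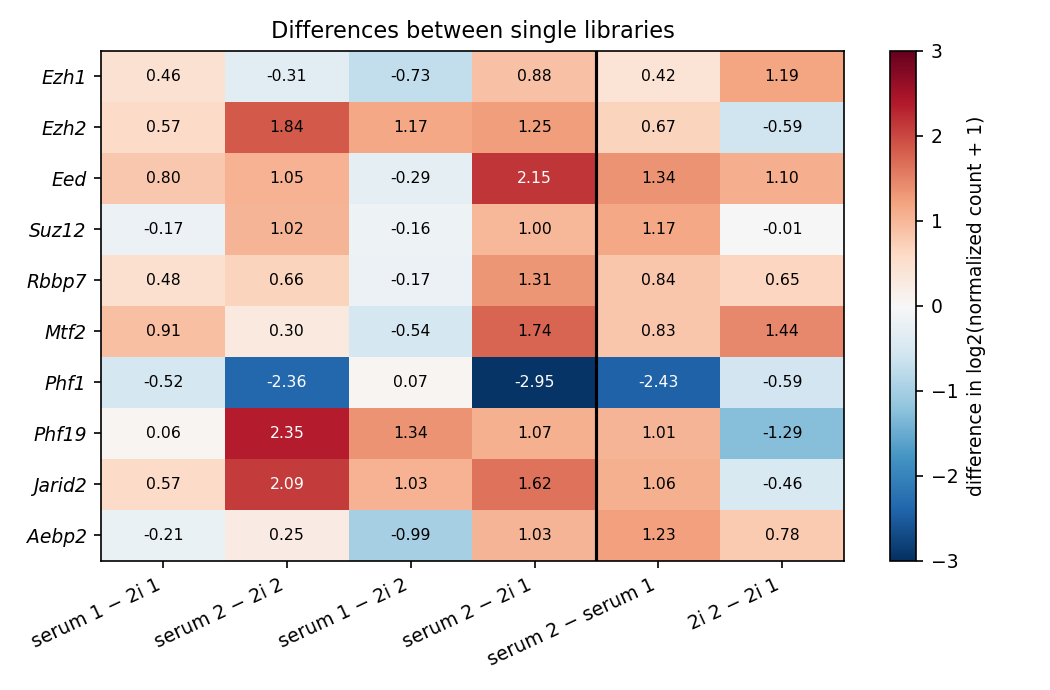
Differences between single libraries for each PRC2 subunit gene, in log2(normalized count + 1), with the 4 pairs of a serum and a 2i library left of the line and the replicate differences right of it, where red is positive and blue is negative. Serum replicate 2 minus serum replicate 1 is positive in every gene but Phf1, and in the column of serum 1 minus 2i 2 only Ezh2, Phf1, Phf19 and Jarid2 are positive.

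Levels of different genes were compared per kilobase of exon. The mean over the 4 libraries was 1445 normalized counts per kilobase for Eed, 1423 for Mtf2, 1408 for Rbbp7 and 1004 for Suz12. These 4 genes exceeded 91.6% or more of tested genes, and their order changed between libraries, so neighbours among them did not differ beyond their spread. Jarid2 followed at 424, Ezh2 at 351 and Aebp2 at 248, where the median over tested genes was 115. Jarid2 was above Ezh2 in all 4 libraries. Ezh2 was above Aebp2 in both serum libraries and in 2i replicate 1 but not in 2i replicate 2, where it had 169 and Aebp2 had 303. Ezh1 at 55.7, Phf1 at 24.6 and Phf19 at 14.8 were the lowest 3 in each library. Ezh1 exceeded 29.8%, Phf1 12.7% and Phf19 6.08% of tested genes. Rbbp4, the paralog of Rbbp7, had 783 per kilobase, and Rbbp7 was 1.64 and 2.15 times Rbbp4 in serum against 1.39 and 1.81 times in 2i, which overlapped.

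**Figure D4:**
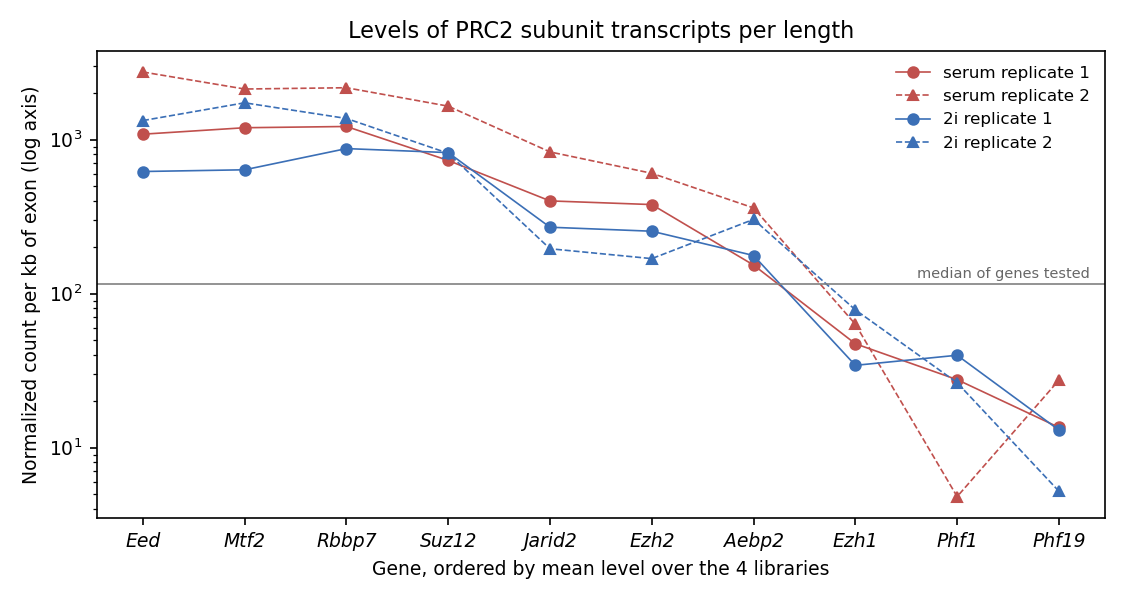
Normalized counts per kilobase of exon (log axis) in each library for the PRC2 subunit genes, ordered by their mean, with solid lines for replicate 1, dashed lines for replicate 2 and a grey line at the median of tested genes (115). Eed, Mtf2, Rbbp7 and Suz12 form the top group in every library, and Ezh1, Phf1 and Phf19 lie under the grey line in every library.

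Whether other genes share read-length sequence with these genes was checked for coding transcripts only, in their sense direction. Pseudogenes and noncoding transcripts were not searched, so the check cannot show that every read was assigned to its gene. Every stretch of 43 bases, the read length, in the coding transcripts of all 10 genes and Rbbp4 was absent from coding transcripts of other genes. Some genes overlap the subunit genes on the other strand: Gm17629 with Ezh2, Gm16706 with Suz12, Txlng with Rbbp7 and Tmed5 with Mtf2. Gm17525 and Sync overlap Rbbp4 in the same way. Whether counting used the strand is not stated, so reads of shared exons cannot be told apart. Gm17629 had 12.6 to 90.4 normalized counts and Gm16706 had 36.9 to 286, which is low beside Ezh2 and Suz12. Txlng had 755 to 2383 and Tmed5 had 595 to 1727.

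Other genes that work with or against PRC2 were taken from lists chosen by function, and none passed the adjusted threshold with limma. Of 5 further PRC2 partner genes, 4 had a higher fitted level in serum and 1 a lower one, with a median log2 fold change of 0.64. E130012A19Rik (Epop), which encodes an ESC partner of PRC2.1 that tempers repression, had 1763 and 2954 normalized counts in serum against 654 and 1182 in 2i. Both its serum values were above both 2i values, with a log2 fold change of 1.37 (SE 0.52, limma adjusted p 0.753). AU022751 (Ezhip), which encodes an inhibitor of EZH2, had 32.0 and 4.86 in serum against 129 and 78.6 in 2i, with a log2 fold change of -2.87 (SE 1.30, limma adjusted p 0.753). Its serum values were below both 2i values, and it passed the filter through the 2i libraries alone. Lcor, whose locus also gives the PRC2.1 partner PALI1, had a log2 fold change of 0.64, its relative Lcorl had 0.70, and Rbbp4 had 0.32.

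H3K27 demethylases remove the mark, and H3K36 methyltransferases deposit a mark that hinders PRC2. Of 3 demethylase genes, Kdm6a had a log2 fold change of 0.60 (SE 0.43) and Uty of 0.87 (SE 0.75). Kdm6b had -0.48 (SE 0.82), from 198 and 374 normalized counts in serum against 833 and 173 in 2i. The Kdm6b libraries of 2i were the highest and the lowest of the 4. All 5 H3K36 methyltransferase genes had a higher fitted level in serum, as did 50.3% of all tested genes, with a median log2 fold change of 1.36. In 4 of them both serum values were above both 2i values, as in 20.5% of all tested genes. Whsc1 (Nsd2), which makes dimethylated H3K36, had 1524 and 2364 in serum against 630 and 556 in 2i, with a log2 fold change of 1.68 (SE 0.45). Setd2, which makes trimethylated H3K36, had 2529 and 4175 in serum against 1805 and 451 in 2i, with a log2 fold change of 1.85 (SE 0.72). Nsd1, a further dimethyltransferase, had 1.36 (SE 0.46), Whsc1l1 (Nsd3) had 0.96 and Ash1l had 0.91. The limma adjusted p was 0.753 for Whsc1, Setd2 and Nsd1, and with DESeq2 Whsc1 alone of the 5 passed, at an adjusted p of 0.0180.

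Developmental genes known as targets of H3K27 trimethylation were examined as well. Of 79 listed genes, 36 were in the table and 27 passed the filter, of which 15 passed through the 2i libraries alone, 3 through serum alone and 9 through both. Genes that pass through 1 medium alone are bound to differ, so counts and medians of the 27 describe the filtered genes only. Of the 27, 23 had a lower and 4 a higher fitted level in serum, and the median log2 fold change was -1.62. With a minimum mean of 200 over the 4 libraries, only Foxd3 (-0.03) and Cdkn2a (-0.34) remained. Their median of -0.19 therefore does not describe the list. Summed over all 36 genes in the table, whether or not they passed the filter, normalized counts were 2014 and 1146 in serum against 2972 and 3454 in 2i. Listed genes without a value in the table are not in this sum. The study required at least 50 reads in serum or 2i, so the table may itself be filtered and the sum may share that selection. The lowest log2 fold change was that of Hoxd9, -5.64 (SE 2.29, limma adjusted p 0.753), from 0 and 2.92 normalized counts in serum against 74.7 and 128 in 2i. The highest was that of Neurod1, 2.63 (SE 2.07, limma adjusted p 0.772), from 82.0 and 29.2 in serum against 32.2 and 0.970 in 2i. None passed with limma, and 4 passed with DESeq2, all Hox genes that were lower in serum: Hoxa9, Hoxa10, Hoxb13 and Hoxd9. These were named after their values had been seen. All 4 passed the filter through the 2i libraries alone, so the filter favours their direction. The trophoblast marker sum was also higher in 2i, at 2388 and 3997 against 366 and 330 in serum. Most of it was a single gene in each 2i library, Elf5 (2215) in replicate 1 and Krt8 (3614) in replicate 2. The part of the trophoblast sum in these values was not tested.

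**Figure D5:**
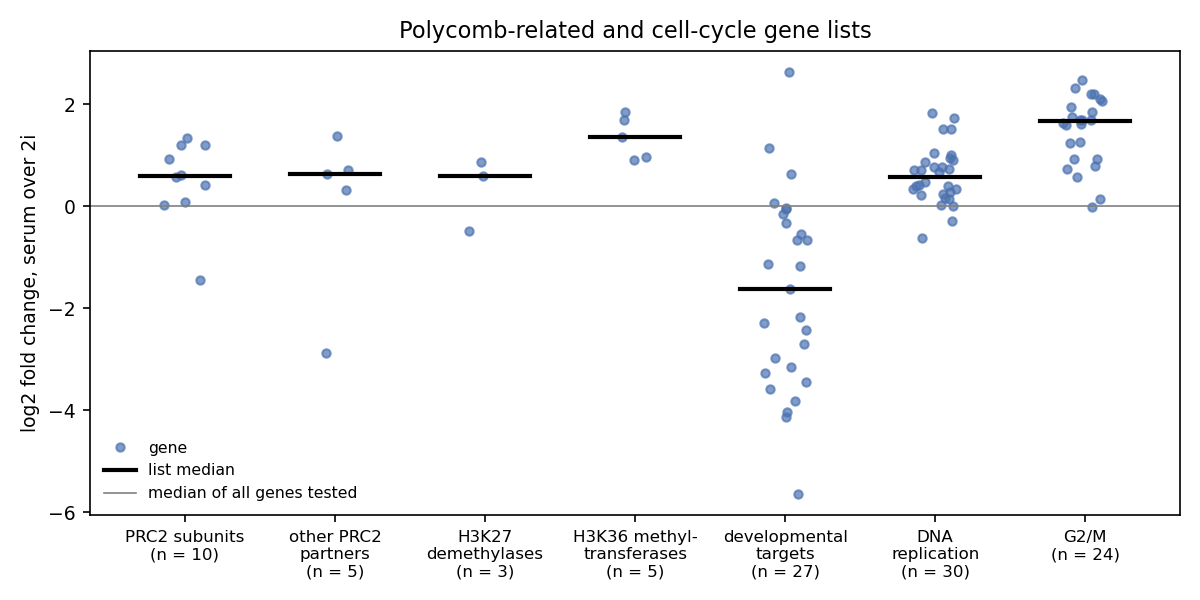
Fitted log2 fold changes of serum over 2i for the PRC2 subunit genes and the tested genes of the other lists, with a point for each gene, a black bar at each list's median and a grey line at the median of all tested genes. The subunit median (0.59) lies near that of the DNA replication genes (0.57) and under that of the G2/M genes (1.66), and the developmental target genes spread from -5.64 to 2.63.

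Cell-cycle lists had higher values in serum in the same libraries. Over the 30 DNA replication genes the median log2 fold change was 0.57. In 15 of them both serum values were above both 2i values, as in 20.5% of all tested genes. The ends of that list were Rrm2 at 1.83 and Pola1 at -0.63. The 24 G2/M genes had a median of 1.66, and in 21 of them both serum values were above both 2i values. The ends of the G2/M list were Hmmr at 2.48 and Cdk1 at -0.01. Summed normalized counts of the G2/M genes were 49614 and 71294 in serum against 26168 and 21260 in 2i. None of these genes passed the adjusted threshold with limma. At an unadjusted limma p under 0.05, 17 G2/M genes and 3 DNA replication genes were higher in serum, as were 2.97% of all tested genes. Both lists were chosen with earlier results of these data known. Ezh2, Jarid2 and Phf19 shared with the G2/M sum the order in which serum replicate 2 was highest and 2i replicate 2 lowest. These are the 3 subunit genes in which both serum values lay above both 2i values, so part of that order was given. Phf19 also passed the filter through serum alone. The share of all tested genes with that order was not counted, so the order is not a trait of these genes. The part of cell-cycle position in the subunit values was not tested.

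The genes whose pattern over the 4 libraries lay nearest to the mean centred profile of Ezh2, Eed and Suz12 were Sart3, Ppp1cb and Otud4. Their Euclidean distances on the log2 scale were 0.0780, 0.0963 and 0.0965. Sart3 had 950 and 1941 normalized counts in serum against 756 and 803 in 2i. Ppp1cb had 3474 and 7964 in serum against 2787 and 3089 in 2i. Otud4 had 3211 and 6493 in serum against 2218 and 2559 in 2i. Each of the 3 was highest in serum replicate 2, and the likeness rests on 4 points that share their scaling factors.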

How the data were processed

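RNA of 4 libraries of G1-sorted mouse ESCs was analysed. The authors removed ribosomal RNA, sequenced single-end reads of 43 bases, aligned them to mm9 with Bowtie and quantified transcripts with MMSeq. The deposited unit is a signal: read counts per gene that the authors had scaled by 1 size factor per library. Values were whole multiples of 1 step per library in 100% of cases (within 0.001), so whole reads were recovered. Names and positions came from GENCODE vM1 (mm9), promoters from RefSeq (GRCm38.p6).

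Genes whose mean reached 50 normalized counts in 1 or both media were tested with limma 3.58.1 (R 4.3.3), with a variance trend, on log2(normalized count + 1), which understates changes of low genes. P-values were adjusted over 13005 genes (Benjamini-Hochberg, threshold 0.05). The study used a count test, and edgeR 4.0.16 and DESeq2 1.42.0 were run on the whole reads as alternatives, beside other pseudocounts, filters, scalings, the replicate block and each library left out. The subunit genes and lists were chosen with earlier results of these data known. All subunits were named, of longer lists the genes at either end, and the 3 genes nearest in pattern. No p-value was given for ratios, levels, lists or promoter words.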

Additional observations from a re-analysis of the deposited data

How the results depend on the processing

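No subunit gene passed the adjusted threshold under any alternative, and the lowest and highest adjusted p over them were 0.211 and 1 for Jarid2, and 0.254 and 1 for Ezh2. Ezh2, Jarid2, Eed, Rbbp7, Phf19 and Phf1 kept their direction in every setting run. Leaving out each library in turn gave log2 fold changes of 0.87 to 1.54 for Ezh2, 0.80 to 1.86 for Jarid2, 0.26 to 1.60 for Eed, 0.15 to 0.99 for Rbbp7, 0.56 to 1.85 for Phf19 and -2.65 to -0.23 for Phf1, and of -0.52 to 0.67 for Ezh1, -0.16 to 1.01 for Suz12, -0.12 to 1.32 for Mtf2, -0.60 to 0.64 for Aebp2. Phf1 and Phf19 have no value with a mean of at least 200. The sign turned for Ezh1 under upper quartile scaling (-0.043), edgeR (-0.056), DESeq2 (-0.045), without serum replicate 2 (-0.13) and without 2i replicate 1 (-0.52). It turned for Aebp2 under upper quartile scaling (-0.10), without serum replicate 2 (-0.60) and without 2i replicate 1 (-0.37), for Suz12 without serum replicate 2 (-0.16) and for Mtf2 without 2i replicate 1 (-0.12). Upper quartile scaling moved the median of all genes by -0.12, so Ezh1 and Aebp2 stayed near that median. Single libraries left out gave a subunit median of 0.17 to 1.01, lowest without serum replicate 2. They gave 0.23 to 0.95 for the PRC2 partners, 0.24 to 0.78 for the demethylases, 0.85 to 1.77 for the H3K36 methyltransferases, -1.92 to -1.43 for the developmental targets, 0.19 to 0.99 for DNA replication and 1.35 to 1.88 for G2/M genes, with 0 to 0 genes past the threshold in each list. The lowest DNA replication value was without 2i replicate 1. The ratio differences ranged from 0.24 to 2.02 for Ezh2 over Ezh1, from -0.81 to 0.38 for PRC2.1 over PRC2.2 (reversed at 0.38 without 2i replicate 2) and from 0.051 to 0.44 for Rbbp7 over Rbbp4. With a mean of at least 200, only Foxd3 and Cdkn2a remained of the developmental targets, with a median of -0.19. Over all genes, 0 were called higher in serum and 2 higher in 2i with limma. DESeq2 called 73 and 178, edgeR 0 and 0, and a mean of at least 200 gave 4 higher in 2i. Limma without the variance trend called 1 higher in 2i. Without any 1 library, 0 to 0 were called higher in serum and 0 to 0 in 2i. DESeq2 called 1 H3K36 methyltransferase, 4 developmental targets (which passed the filter through 2i alone), 1 DNA replication gene and 10 G2/M genes. The cause of these differences between tools was not tested. The replicate block called 44 genes higher in serum and 159 in 2i, 0 subunit genes and 5 G2/M genes. The ESC marker L1td1, named after its values had been seen, passed under the block and with DESeq2. The replicate differences of the media correlated across genes (r = 0.480), but with 2 numbers this does not show that the numbers pair the samples. Ratios come from no test, so no blocked value exists for them. Precision is limited by 2 libraries per medium and, for Phf1 and Phf19, by 12 to 142 whole reads.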
